A study of Mus musculus with 4 samples.

Results

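The miR-10, miR-99/100 and miR-125 families were followed through plasma vesicle preparations as their 7 guide strands, mmu-miR-10a-5p, mmu-miR-10b-5p, mmu-miR-99a-5p, mmu-miR-99b-5p, mmu-miR-100-5p, mmu-miR-125a-5p and mmu-miR-125b-5p, written without the species prefix from here on. The members were chosen by name, and all 7 were among the 1809 miRNAs listed for all 4 libraries. C57BL/6 mice, either wild type (WT) or gp49B-/- (KO), received Lewis lung carcinoma (LLC) cells, a mouse lung tumour line, by vein, and EDTA plasma was taken on day 21. gp49B is an inhibitory receptor of myeloid cells. Vesicles were precipitated with ExoQuick, a reagent that also brings down plasma particles other than exosomes, and their RNA was made into libraries whose molecules each carry a unique molecular identifier (UMI), so that a UMI count approximates a count of molecules. Each library was 1 pool, of 3 plasma samples for WT and of 4 for KO. The 4 libraries are called WT1, WT2, KO1 and KO2 after genotype and pool number. Genotype and the number of samples pooled therefore cannot be told apart, and all mice carried tumour cells. Whether the pools hold separate mice is not stated in the labels, so spread between pools may be technical.

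Members of these families bind messenger RNAs through a short 5′ stretch, the seed, and lower their stability or translation. The miR-10 genes lie among the Hox genes that pattern the body axis, and miR-10b is known for promoting invasion of breast cancer cells. miR-99 and miR-100 are known to target the kinase mTOR, and miR-125 is best known from blood stem cells and from myeloid and inflammatory signalling. The genes of miR-99/100 and miR-125 lie in mixed clusters with a let-7 gene between them.

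The mature sequences are shown because each family is defined by its seed (bases 2 to 8, in capitals) and because some members differ so little that counting could exchange them. All 7 matched the RefSeq table of GRCm38.p6, and their positions equalled the deposited loci.
miR-10a-5p: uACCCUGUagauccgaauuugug
miR-10b-5p: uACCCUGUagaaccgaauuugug
miR-99a-5p: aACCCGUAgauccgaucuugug
miR-100-5p: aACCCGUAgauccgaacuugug
miR-99b-5p: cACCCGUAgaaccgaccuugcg
miR-125a-5p: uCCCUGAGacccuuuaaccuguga
miR-125b-5p: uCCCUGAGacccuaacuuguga

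Counted from the 5′ end, miR-10a-5p and miR-10b-5p differ by a single substitution, U12A, and miR-99a-5p and miR-100-5p by U16A, in both cases outside the seed. miR-99b-5p differs from miR-99a-5p at 4 positions (A1C, U11A, U16C and U21C). The miR-10 and miR-99/100 sequences are themselves related: with base 6 of miR-10a-5p left out, 20 of 22 positions match miR-100-5p. miR-125a-5p and miR-125b-5p share their first 13 bases and differ in length, at 24 and 22 bases. A single misread base could thus move a count between miR-10a-5p and miR-10b-5p, or between miR-99a-5p and miR-100-5p, and this was not tested.

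The genes are spread over 5 loci on GRCm38. miR-10a-5p (chr11:96317186-96317208, plus strand) lies between Hoxb5 and Hoxb4, 1059 bases from the latter, and miR-10b-5p (chr2:74726074-74726096, plus strand) lies in introns of Hoxd3 and Hoxd4. miR-99b-5p (chr17:17830194-17830215), let-7e and miR-125a-5p (chr17:17830817-17830840) follow each other on the plus strand within 683 bases, the first in an intron of Spaca6 and miR-125a-5p in sequence annotated as a Spaca6 exon. miR-99a-5p (chr16:77598940-77598961), let-7c-1 and a copy of miR-125b-5p (chr16:77646279-77646300) lie on the plus strand in introns of the noncoding gene Mir99ahg, over 47400 bases. miR-100-5p (chr9:41531437-41531458), let-7a-2 and the other copy of miR-125b-5p (chr9:41581940-41581961) span 50565 bases of the plus strand, in introns of the noncoding gene 3110039I08Rik. Because miR-125b-5p is the same molecule from both loci, its count cannot be assigned to either.

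The 1809 miRNAs took 1577749 UMIs in WT1, 3170219 in WT2, 1709669 in KO1 and 3630249 in KO2, with 5.29, 1.69, 5.70 and 2.11 reads per UMI. The median miRNA had 47, 31, 43 and 42 UMIs in the same order. Counts are scaled in 2 ways. TMM (trimmed mean of M values) brings the middle of the miRNAs together, and its levels are given as TMM CPM. Scaling on total UMIs relates a count to all miRNA UMIs of the library, and its levels are given as UPM, the UMIs in a library brought to 1000000 miRNA UMIs. They differ here: the median KO over WT ratio of the 1797 miRNAs tested was 0.991 in pool 1 and 0.989 in pool 2 with TMM, against 0.878 and 1.18 on total UMIs. The libraries hold no mRNA of the deleted gene with which to check genotype.

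Among the 7, the miR-125 pair was counted most and miR-100-5p least in every library. miR-125a-5p had 12439 UMIs in WT1, 14275 in WT2, 26915 in KO1 and 17688 in KO2, and placed 20th, 24th, 11th and 24th among all miRNAs. miR-125b-5p followed with 6755, 13265, 14778 and 15475 UMIs. The miR-10 pair came next, and its inner order varied: miR-10a-5p exceeded miR-10b-5p in 3 libraries, and miR-10b-5p exceeded it in KO1. Below these came miR-99a-5p and miR-99b-5p, of which miR-99b-5p was the higher in WT1 and miR-99a-5p in the other libraries. miR-100-5p had 140, 375, 290 and 455 UMIs. Neighbours in this order overlapped in WT for miR-99a-5p (452 ± 213 UPM) and miR-99b-5p (439 ± 8.15), each mean ± SD with n = 2. The WT means of miR-10a-5p (1597 ± 304) and miR-10b-5p (1115 ± 353) lay within 2 SD. Their WT values did not overlap, at 1811 and 1382 against 1365 and 866 UPM in WT1 and WT2. In KO the levels were 701 ± 64.2 for miR-99a-5p and 409 ± 54.0 for miR-99b-5p, and 2283 ± 1548 and 2422 ± 1817 for miR-10a-5p and miR-10b-5p. Each UMI marks a molecule whatever its length, but adapter ligation favours some sequences, so order between miRNAs is an order of counts. Reads per UMI of the 7 lay between 5.36 and 6.18 in WT1, 1.66 and 1.70 in WT2, 5.41 and 6.52 in KO1, and 2.07 and 2.22 in KO2, close to the values of the whole libraries.

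**Figure D1:**
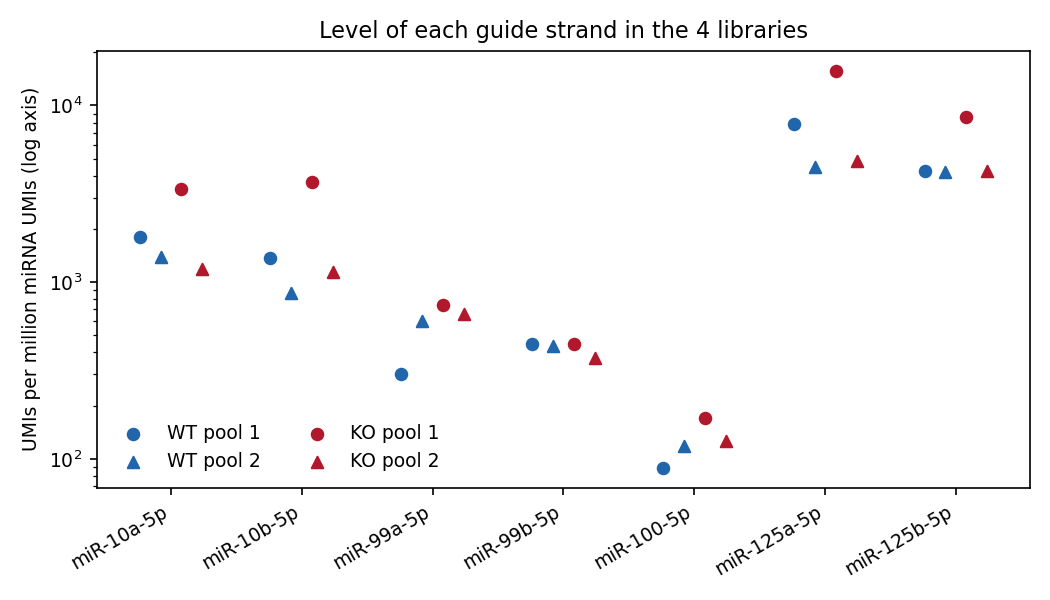
UPM (log axis) of each of the 7 guide strands, 1 point per library, with WT in blue, KO in red, circles for pool 1 and triangles for pool 2. KO1 is the highest of the 4 libraries for each of the 7, but for miR-99b-5p the 4 values lie close together, between 371 and 447.

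The comparison of genotypes asks which of these miRNAs differ in vesicles of tumour-bearing mice without gp49B. In pool 1, 7 of 7 were higher in KO under both scalings, as were 62.5% (TMM) and 44.9% (total UMIs) of the 352 abundant miRNAs (those averaging at least 100 UMIs). In pool 2, 1 of 7 was higher with TMM (46%) and 5 of 7 on total UMIs (74.7%). With TMM, 6 of 7 exceeded WT at least 2-fold in pool 1, where 7.67% of those 352 did, and in pool 2 0 of 7 did, against 1.42%. On total UMIs these counts were 3 of 7 (4.55%) and 0 of 7 (3.41%). The median ratio of the 7 was 2.25 in pool 1 and 0.889 in pool 2 with TMM, and 2.0 and 1.06 on total UMIs. Each of the 7 has a mean of at least 315 UMIs and entered the test.

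In the miR-10 family, miR-10b-5p was the member higher in KO in both pools under either scaling. It had 2154 UMIs in WT1, 2744 in WT2, 6338 in KO1 and 4127 in KO2. Its KO over WT ratio with TMM was 3.07 in pool 1 (exact 95% interval 2.92 to 3.22, counting error only, as for all ratios below) and 1.10 in pool 2 (1.05 to 1.16), and on total UMIs 2.72 and 1.31. After TMM both KO values lay above both WT values, at 2467 and 1663 against 805 and 1508 TMM CPM. This held for 1 of the 7 members, where 9.52% of the 1797 tested and 10.2% of the abundant miRNAs did so. In UPM the groups overlapped, at 3707 and 1137 in KO and 1365 and 866 in WT.

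Its sister miR-10a-5p, from the Hoxb locus, had 2858 UMIs in WT1, 4380 in WT2, 5775 in KO1 and 4315 in KO2. The KO over WT ratio came to 2.10 (2.01 to 2.20) in pool 1, against 0.722 (0.692 to 0.753) in pool 2 with TMM, or 1.86 and 0.860 on total UMIs. It was thus higher in KO in pool 1 and lower in pool 2 under both scalings.

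In the miR-99/100 family, miR-99a-5p had 476 UMIs in WT1, 1911 in WT2, 1276 in KO1 and 2380 in KO2. Its KO over WT ratio reached 2.79 (2.51 to 3.11) in pool 1, and 0.913 (0.859 to 0.970) in pool 2 with TMM, and 2.47 and 1.09 on total UMIs, so the direction in pool 2 depended on the scaling. In UPM both KO values (746 and 656) lay above both WT values (302 and 603). miR-100-5p had ratios of 2.16 (1.76 to 2.66) and 0.889 (0.774 to 1.02) with TMM and 1.91 and 1.06 on total UMIs. Its KO values of 170 and 125 UPM also lay above the WT values of 88.7 and 118. These 2 were the members whose groups did not overlap on total UMIs, where 3.28% of the 1797 tested and 7.67% of the abundant miRNAs had both KO values above both WT values. After TMM the groups of both overlapped.

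miR-99b-5p, the third member, was near equal in the genotypes in pool 1. It had 702 UMIs in WT1, 1374 in WT2, 765 in KO1 and 1347 in KO2, or 445, 433, 447 and 371 UPM. The KO over WT ratio came to 1.14 (1.02 to 1.26) in pool 1, against 0.718 (0.666 to 0.775) in pool 2 with TMM, and 1.01 (0.907 to 1.12) and 0.856 (0.794 to 0.924) on total UMIs. Its pool 1 interval lay below those of the other 6 under both scalings.

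The miR-125 guides, which share a seed and no locus, had like ratios. miR-125a-5p and miR-125b-5p were higher in KO1 than in WT1. For miR-125a-5p the KO over WT ratio reached 2.25 (2.21 to 2.30) in pool 1, and 0.908 (0.888 to 0.928) in pool 2, with TMM, and that of miR-125b-5p 2.28 (2.21 to 2.35) and 0.855 (0.835 to 0.875). On total UMIs they were 2.0 and 1.08 for miR-125a-5p, and 2.02 and 1.02 for miR-125b-5p, so in pool 2 both lay below 1 with TMM and above 1 on total UMIs. In UPM KO1 stood apart, with 15743 of miR-125a-5p against 4503 to 7884 in the other libraries, and 8644 of miR-125b-5p against 4184 to 4281.

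**Figure D2:**
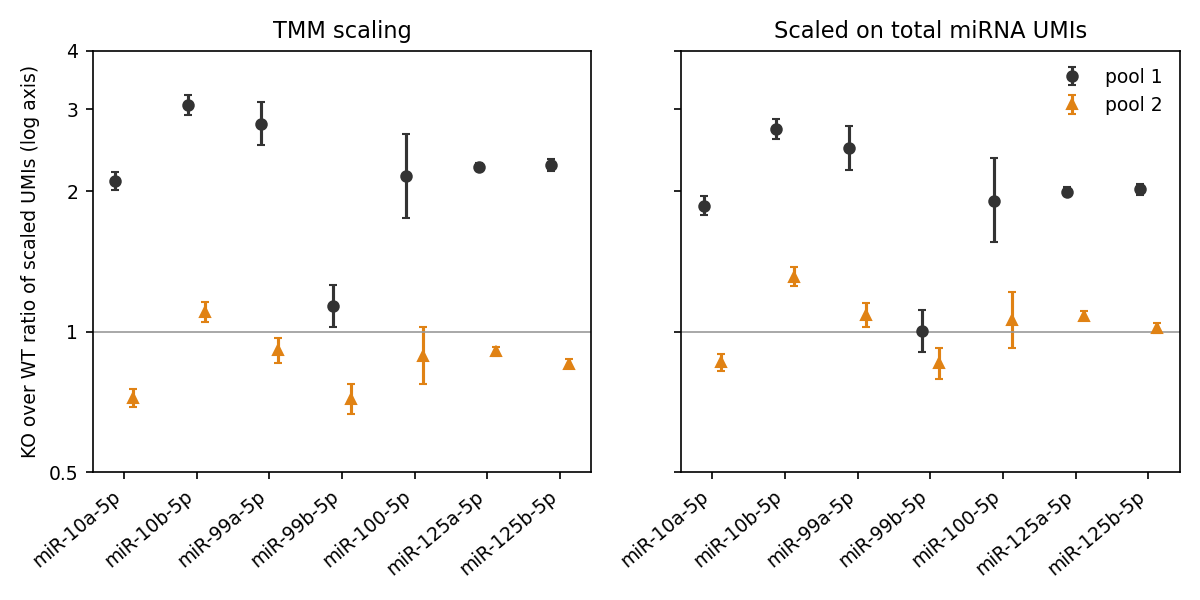
KO over WT ratio (log axis) of each guide strand in pool 1 (circles) and pool 2 (triangles), with TMM scaling on the left and scaling on total miRNA UMIs on the right, and bars for exact 95% intervals of counting error. In pool 1 all but miR-99b-5p lie at 1.86 or above, and in pool 2 all lie between 0.718 and 1.31.

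Tested over both pools, 0 of the 7 passed edgeR's quasi-likelihood test (Benjamini-Hochberg adjusted p 0.99995 for each), and 0 of the 1797 miRNAs tested (0%) did. At an unadjusted p under 0.05 the same test counted 32 of the 1797 (1.78%), limma-voom 27 and DESeq2 28, and 0 of the 7 with each tool. The estimate of miR-10b-5p was a log2 fold change of 0.84 (SE 0.69), with an edgeR unadjusted p of 0.252. Estimates of the others were 0.49 (SE 0.80) for miR-125a-5p, 0.29 (0.81) for miR-125b-5p, 0.25 (0.81) for miR-99a-5p, 0.20 for miR-10a-5p (0.71) and miR-100-5p (0.66), and -0.28 (0.68) for miR-99b-5p. Positive estimates were thus 6 of 7, where 47.4% of all tested and 58.2% of the abundant miRNAs were positive, and the median was 0.25 against -0.03 over all tested. Without WT1 the estimates of miR-10a-5p, miR-99a-5p, miR-100-5p and miR-125b-5p were -0.25, -0.51, -0.45 and -0.26, and without KO2 those of miR-99a-5p and miR-100-5p were -0.31 and -0.19. For miR-99b-5p the estimate was 0.11 without KO1 and 0.68 without WT2. miR-10b-5p and miR-125a-5p kept positive estimates with each library left out, at 0.48 to 1.36 and 0.19 to 0.92.

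As shares of all miRNA UMIs, the 7 together took 1.62% in WT1, 1.21% in WT2, 3.28% in KO1 and 1.26% in KO2. The share was high in KO1 alone, and KO2 lay between the WT libraries. KO averaged 2.27% ± 1.43 and WT 1.41% ± 0.289 (SD, n = 2 per genotype, two-sided exact permutation p = 0.667, where 2 against 2 libraries cannot go below 0.333). The miR-125 pair took 1.22% of WT1, 0.869% of WT2, 2.44% of KO1 and 0.914% of KO2, the miR-10 pair 0.318% and 0.225% against 0.708% and 0.233%, and the miR-99/100 members 0.0835% and 0.115% against 0.136% and 0.115%. For each family the exact permutation p was 0.667 (two-sided, n = 2 each). Without KO1 the KO minus WT difference of the 7 was -0.152 percentage points in place of 0.859, that of miR-10 was -0.0386 in place of 0.199, and that of miR-125 was -0.129 in place of 0.633.

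The share that a member takes within its family needs no scaling between libraries. miR-10b-5p made up 43.0% of the miR-10 UMIs in WT1 (exact 95% binomial interval 41.6 to 44.4%), 38.5% in WT2 (37.4 to 39.7%), 52.3% in KO1 (51.4 to 53.2%) and 48.9% in KO2 (47.8 to 49.96%). The KO libraries held the higher shares in both pools, without overlap, and the ratio of miR-10b-5p to miR-10a-5p was 1.46-fold higher in KO in pool 1 and 1.53-fold higher in pool 2. The mean difference was 9.86 percentage points, and 7.63 to 12.1 with each library left out. From read counts the shares were 42.7%, 38.5%, 51.5% and 48.4%. The two-sided exact permutation p was 0.333, the smallest this design allows, and 0.533 after Benjamini-Hochberg adjustment over the 8 shares compared. The level of the pair as a whole, given above, overlapped between genotypes. Since miR-10a-5p and miR-10b-5p differ at 1 base, the shares rest on how reads were assigned between them.

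In the miR-99/100 family the share of miR-99b-5p was 53.3% in WT1, 37.5% in WT2, 32.8% in KO1 and 32.2% in KO2. Both KO values lay below both WT values. The share of miR-99a-5p was 36.1% (WT1), 52.2% (WT2), 54.7% (KO1) and 56.9% (KO2), and that of miR-100-5p 10.6%, 10.2%, 12.4% and 10.9%. These 3 shares sum to the whole and are not separate results, and each had an exact two-sided permutation p of 0.333 (adjusted 0.533). Without WT1 the difference of miR-99b-5p was -5.03 points in place of -12.9, and that of miR-99a-5p 3.61 in place of 11.7.

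The miR-125 pair differed by pool number rather than by genotype. miR-125a-5p made up 64.8% of it in WT1, 64.6% in KO1, 51.8% in WT2 and 53.3% in KO2 (exact permutation p = 1, two-sided). The ratio of miR-125a-5p to miR-125b-5p was 1.84 and 1.82 in the pool 1 libraries and 1.08 and 1.14 in the pool 2 libraries. The genotypes overlapped, and the KO minus WT difference of 0.626 points was -4.98 without KO1 and -5.86 without WT2.

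**Figure D3:**
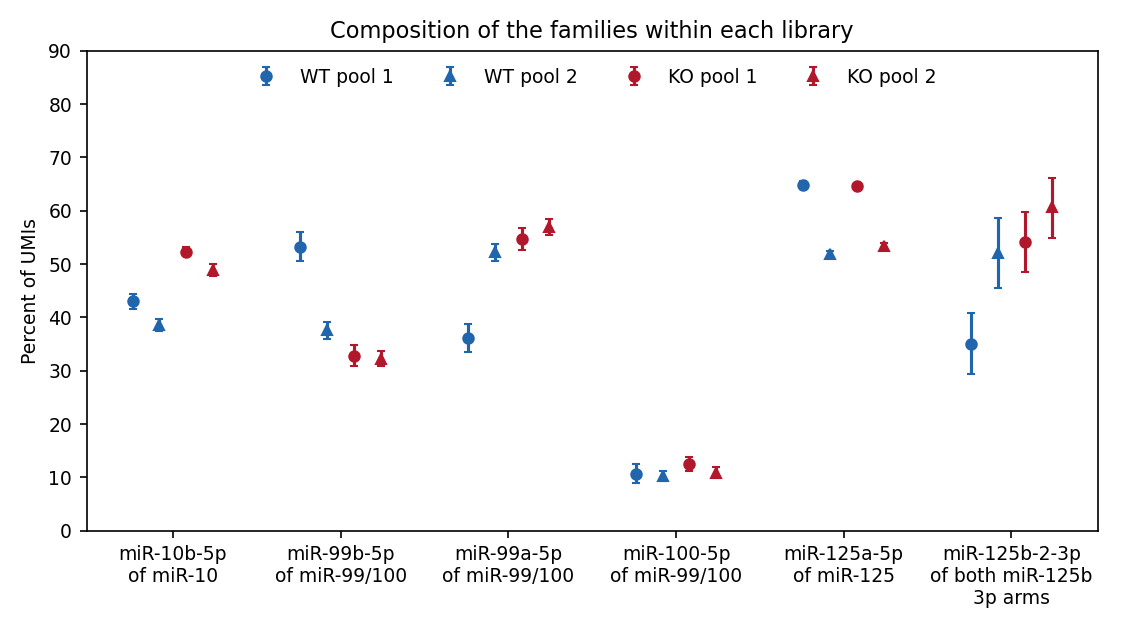
Percent of UMIs that 1 miRNA takes of its family in each library, with exact 95% binomial intervals, WT in blue, KO in red, circles for pool 1 and triangles for pool 2. The miR-10b-5p share is 38.5 to 43.0% in WT and 48.9 to 52.3% in KO, and the miR-125a-5p share separates the pool numbers.

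The opposite arms, cluster neighbours, other Hox miRNAs and the seed relative miR-351-5p were examined as a list of 18 related miRNAs, of which 17 were listed for all libraries. miR-100-3p was the exception, with 11 UMIs in WT1 and listed at 0 in KO1, and it was not tested. In edgeR's test 0 of 17 passed at an adjusted p under 0.05 (10 estimates above 0 and 7 below, median log2 fold change 0.09), with 0 at an unadjusted p under 0.05 in edgeR, limma-voom and DESeq2.

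Within the Spaca6 cluster the ratios of the 3 guide strands differed. In pool 1 the TMM ratio was 1.14 for miR-99b-5p, 1.74 (1.57 to 1.93) for let-7e-5p and 2.25 for miR-125a-5p, and in pool 2 it was 0.718, 0.961 (0.860 to 1.08) and 0.908. The order was the same on read counts in pool 1, where the ratios on total reads were 1.05, 1.80 and 1.95. In pool 2 the ratios on total reads were 0.903, 1.01 and 1.09, so let-7e-5p and miR-125a-5p changed places there. The ratio of miR-125a-5p to miR-99b-5p UMI counts was 17.7 in WT1, 10.4 in WT2, 35.2 in KO1 and 13.1 in KO2. The ratio was 1.99-fold higher in KO in pool 1 and 1.26-fold higher in pool 2, but WT1 exceeded KO2. let-7e-5p had 3.32 reads per UMI in WT1, 1.52 in WT2, 4.17 in KO1 and 1.68 in KO2. Each lay below the value of its library, at 5.29, 1.69, 5.70 and 2.11.

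In the Mir99ahg cluster let-7c-5p, which also comes from a locus on chromosome 15, had 20430 UMIs in WT1, 65301 in WT2, 39256 in KO1 and 74999 in KO2. Its TMM ratio in pool 1 was 2.0 (1.97 to 2.04), below the intervals of miR-125b-5p and miR-99a-5p. In pool 2 it was 0.842 (0.833 to 0.851), below miR-99a-5p and overlapping miR-125b-5p in interval. The ratio of let-7c-5p to miR-99a-5p UMI counts was 42.9 in WT1, 34.2 in WT2, 30.8 in KO1 and 31.5 in KO2. On total UMIs the pool 2 KO over WT ratio of let-7c-5p was 1.00. let-7a-5p, which the miR-100 cluster shares with another locus, had ratios of 1.11 (1.09 to 1.14) and 1.18 (1.16 to 1.20) with TMM, and 0.987 and 1.41 on total UMIs. It therefore lay below its cluster partner miR-100-5p in pool 1 and above it in pool 2. The let-7 guides have near-identical relatives, so their counts are uncertain in the same way as those of miR-10a-5p and miR-10b-5p.

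The opposite arms, which are mostly discarded when the guide is loaded, were counted at 53 to 362 UMIs outside the miR-100 hairpin. In pool 1 their TMM ratios were lower than those of the guides in each of the 6 hairpins counted in all libraries, with miR-125b counted as 1. The median pool 1 TMM ratio was 2.25 for the 7 guides and 0.831 for the 7 opposite arms. It was 0.991 over all tested and 1.09 over the abundant miRNAs. A ratio below the guides was thus not particular to the arms. The arms had ratios of 1.67 (1.24 to 2.27) for miR-10a-3p, 1.19 (0.948 to 1.48) for miR-10b-3p, 0.724 (0.520 to 1.00) for miR-99a-3p, 0.702 (0.588 to 0.837) for miR-99b-3p, 0.831 (0.611 to 1.13) for miR-125a-3p, 0.823 (0.659 to 1.03) for miR-125b-1-3p and 1.81 (1.41 to 2.34) for miR-125b-2-3p. Pool 2 did not show this order: miR-10a-3p (0.893), miR-10b-3p (1.59), miR-99a-3p (0.923), miR-99b-3p (0.996) and miR-125b-2-3p (1.09) lay above their guides, and miR-125a-3p (0.774) and miR-125b-1-3p (0.771) below. The guide exceeded the opposite arm 5.01-fold for miR-99a in WT1 and 19.3-fold in KO1, but 18.4-fold and 18.2-fold in pool 2. For miR-125a this ratio was 126 in WT1, 341 in KO1, 269 in WT2 and 316 in KO2. miR-99b had the lowest such ratios of UMI counts of the hairpins, at 2.20, 3.56, 9.68 and 6.98 in WT1, KO1, WT2 and KO2. The lowest of the 4 ratios was that of WT1 in 5 of the 6 hairpins, and in miR-10b it was that of KO2 (11.4, against 14.2 in WT1).

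The 3p arms of miR-125b tell its loci apart, which the guide cannot.
miR-125b-1-3p: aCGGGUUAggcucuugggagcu
miR-125b-2-3p: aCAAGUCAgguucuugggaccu
miR-125b-1-3p, from the chromosome 9 locus, had 186 UMIs in WT1, 114 in WT2, 147 in KO1 and 120 in KO2. miR-125b-2-3p, from the Mir99ahg locus, had 100, 124, 174 and 185. The second made up 35.0% (29.4 to 40.8%) of both in WT1, 52.1% (45.6 to 58.6%) in WT2, 54.2% (48.6 to 59.8%) in KO1 and 60.7% (54.9 to 66.2%) in KO2. The genotypes did not overlap in this share either, with binomial intervals that overlapped between WT2 and each KO library. The mean difference was 13.9 points, and 5.33 without WT1 (exact two-sided permutation p = 0.333, adjusted 0.533). The miR-10 3p arms gave no such separation: miR-10b-3p made up 67.6% and 72.3% in WT and 59.7% and 82.3% in KO, so its share was lower in KO in pool 1 and higher in KO in pool 2.

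**Figure D4:**
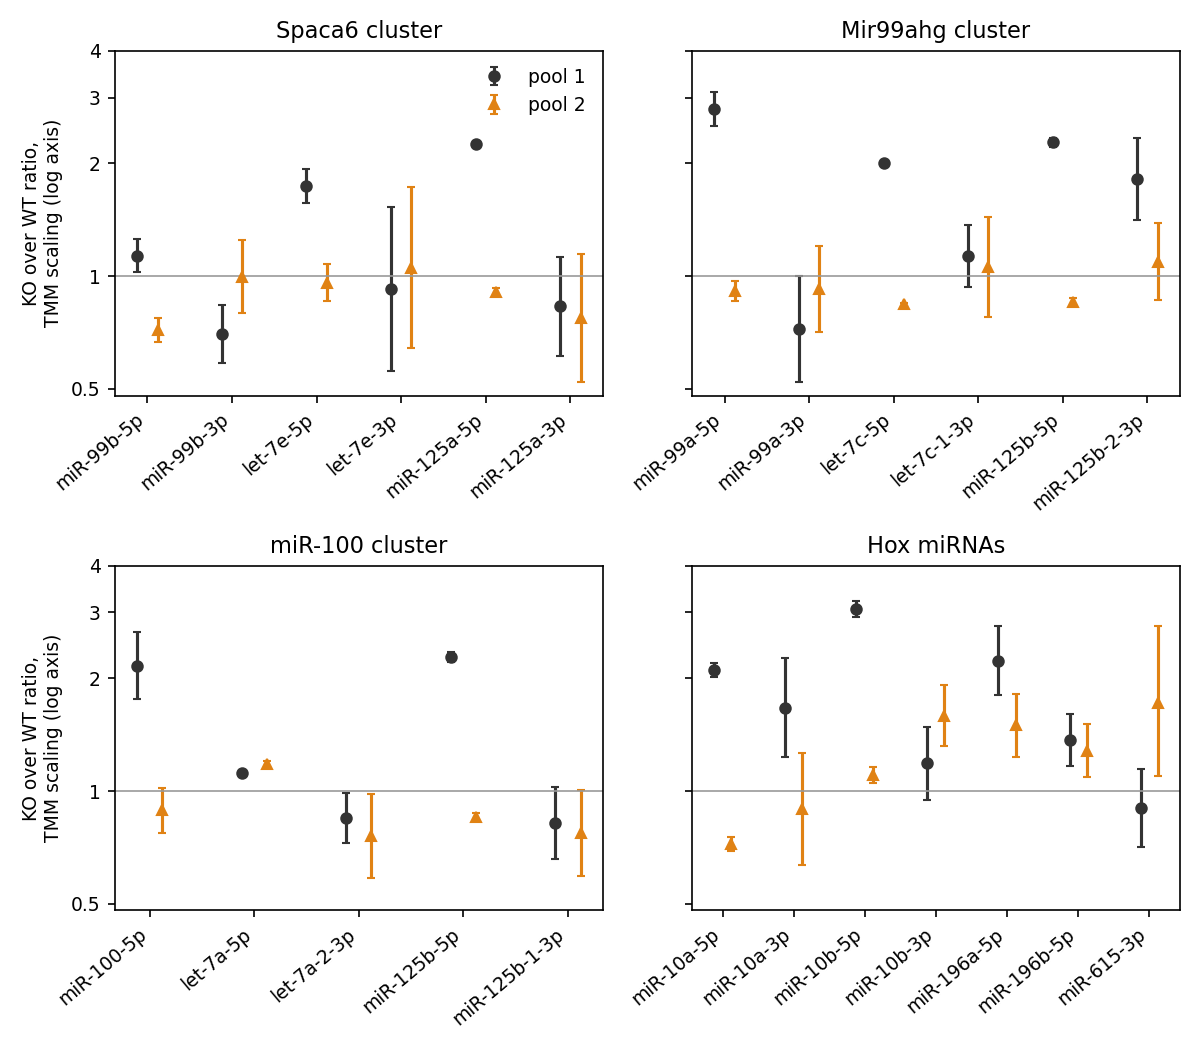
KO over WT ratio with TMM scaling (log axis) of guides and opposite arms, in 4 panels for the 3 clusters and the Hox miRNAs, with circles for pool 1, triangles for pool 2 and bars for exact 95% intervals of counting error. In pool 1 miR-99b-5p lies at 1.14 beside 2.25 for miR-125a-5p of the same cluster, and the opposite arms lie below their guides.

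The other Hox cluster miRNAs had positive estimates in 3 of 3 cases with TMM, as had 47.4% of all tested and 58.2% of the abundant miRNAs. Their median log2 fold change was 0.40, but that of miR-615-3p (0.09) was -0.14 on total UMIs, and 0 passed. miR-196a-5p, which comes from the Hoxb and Hoxc clusters and is known to target Hoxb8, had 132 UMIs in WT1, 160 in WT2, 282 in KO1 and 327 in KO2. Its KO over WT ratio reached 2.23 (1.80 to 2.76) in pool 1, and 1.5 (1.24 to 1.82) in pool 2 with TMM, and 1.97 and 1.79 on total UMIs. Both KO values lay above both WT values with TMM (110 and 132 against 49.3 and 88.0 TMM CPM) and on total UMIs (165 and 90.1 against 83.7 and 50.5 UPM). Of the abundant miRNAs, 10.2% did so with TMM and 7.67% on total UMIs. The log2 fold change of miR-196a-5p was 0.82 (SE 0.52, edgeR adjusted p 0.99995). miR-196b-5p of the Hoxa cluster had ratios of 1.37 and 1.28 with TMM, and miR-615-3p of the Hoxc cluster 0.901 and 1.72. In TMM CPM both KO values of miR-196b-5p (138 and 166) also lay above both WT values (101 and 130), but in UPM the groups overlapped. With miR-10b-5p, both miR-196 miRNAs had TMM ratios above 1 in both pools, as had 30.7% of the abundant miRNAs. On total UMIs the same 3 were higher in both pools, where 33.8% were.

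Of the 1560 listed miRNAs with a RefSeq sequence, 3 others share the miR-125 seed and 0 others that of miR-10 or miR-99/100. miR-351-5p, the established seed relative of miR-125, had 268 UMIs in WT1, 176 in WT2, 175 in KO1 and 168 in KO2. Its KO over WT ratio came to 0.680 (0.559 to 0.826) in pool 1, and 0.700 (0.563 to 0.869) in pool 2 with TMM, and 0.603 and 0.834 on total UMIs, opposite in pool 1 to the miR-125 guides. Its log2 fold change was -0.54 (SE 0.48, edgeR adjusted p 0.99995). miR-6367 had 100, 77, 67 and 144 UMIs, and miR-6394 had 38, 24, 39 and 30, in WT1, WT2, KO1 and KO2. Together these relatives were counted far below miR-125a-5p and miR-125b-5p in each library.

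The miRNAs most like each family across the 4 libraries were found from the root mean square distance between log2 TMM CPM, each centred on its own mean, among 345 other abundant miRNAs. For miR-125 they were miR-26a-5p (distance 0.06), miR-340-5p (0.14) and miR-434-3p (0.15), where the median distance was 0.52. For miR-10 they were miR-26a-5p (0.08), miR-340-5p (0.18) and miR-126a-3p (0.19), and for miR-99/100 miR-101c (0.05), the cluster neighbour let-7c-5p (0.08) and let-7b-5p (0.12). The nearest of all, miR-101c, had 176 UMIs in WT1, 450 in WT2, 314 in KO1 and 551 in KO2. miR-26a-5p had TMM ratios of 2.29 in pool 1 and 0.789 in pool 2. With 4 libraries this is a description, and the points share library and depth.

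Markers of other cell types were above 0 in every library, 28 of 28, and several sums stood high in KO1 with the 7 guides. Few of the listed miRNAs were at 0, with 15 in WT1, 14 in KO1, 0 in WT2 and 0 in KO2. Detection therefore does not set these markers apart from other miRNAs. The 3 myeloid markers took 1.14 to 2.18% of miRNA UMIs in WT and 1.13 to 4.58% in KO, with the high value in KO1. Platelet and endothelial markers (3 of 3 detected) took 0.345 to 0.595% and 0.348 to 0.943%, and stromal and smooth muscle markers (3 of 3) 0.517 to 0.572% and 0.325 to 0.867%. Skeletal muscle markers (3 of 3) took 0.396 to 0.424% and 0.686 to 3.68%. The KO over WT ratios of these sums on total UMIs were 2.10, 1.59, 1.52 and 9.30 in pool 1 and 0.984, 1.01, 0.628 and 1.62 in pool 2, beside 2.03 and 1.04 for the 7 guides. Markers of a list differed among themselves. In the myeloid list the pool 1 ratio was 2.47 for miR-223-3p, which holds most of its UMIs, and 1.18 and 1.10 for miR-142a-3p and miR-142a-5p. In pool 2 these 3 had ratios of 0.855, 1.19 and 1.23. Of the platelet and endothelial markers, miR-126a-3p had ratios of 1.66 and 0.882 in pools 1 and 2. For miR-126a-5p they were 1.47 and 1.14, and for miR-199a-5p 2.54 and 1.48. In the stromal list miR-214-3p had ratios of 0.826 and 1.81 in pools 1 and 2, opposite in direction to miR-143-3p (1.53 and 0.624) and miR-145a-5p (1.61 and 0.571). In the skeletal muscle list the ratios were 18.5 and 2.42 for miR-206-3p in pools 1 and 2. They were 7.04 and 1.15 for miR-1a-3p, and 6.22 and 0.942 for miR-133a-3p. Red blood cell markers (6 of 6) took 43.2 to 46.0% in WT and 37.4 to 46.3% in KO, low in KO1, and liver markers (4 of 4) 11.4 to 27.3% and 7.48 to 20.3%. Most UMIs of the red blood cell list were of miR-16-5p, at 35.4% in WT1, 24.8% in WT2, 29.4% in KO1 and 28.5% in KO2. Its ratios were 0.832 and 1.15 in pools 1 and 2. Those of miR-486b-5p were 0.748 and 0.959, and those of miR-486a-5p 0.750 and 0.986. miR-451a, miR-144-3p and miR-144-5p had ratios of 0.753, 0.390 and 0.708 in pool 1 and of 1.04, 1.30 and 1.06 in pool 2. Lymphocyte markers (2 of 2) took 0.443 to 0.690% in WT and 0.458 to 0.821% in KO, and epithelial markers (4 of 4) 0.0767 to 0.142% and 0.101 to 0.196%. Both of these sums were highest in KO1. On total UMIs the ratios of the sums in pools 1 and 2 were 1.19 and 1.03 for lymphocyte and 1.38 and 1.31 for epithelial markers. They were 0.813 and 1.07 for red blood cell and 0.659 and 0.743 for liver markers. The part of these cell types in the results of the 7 guides was not tested, and in pooled plasma more vesicles of a type and more of a miRNA per vesicle cannot be told apart.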

How the data were processed

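Per the labels, vesicle RNA was sequenced with the QIAseq miRNA kit. For each mature miRNA the authors deposited a UMI count and a read count, both unscaled. The deposited log2 values equal the log2 UMI count plus 1 constant per library and were not used. Per the submitters' processing notes, FastQC 0.11.9 and the builds GRCm38 and mm10 were used. For the aligner and the counter, the sources used here give no name. The lowest count above 0 was 10 in pool 1 libraries, 1 in WT2 and 2 in KO2.

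UMI counts of 1809 miRNAs listed for all libraries were fitted with edgeR 4.0.16 in R 4.3.3 (default expression filter, TMM, quasi-likelihood F-test, 2 residual degrees of freedom, Benjamini-Hochberg adjusted p under 0.05 over the 1797 left). A standard error is the estimate divided by the root of F. The fit was also run on simulated counts with no difference between pools and less spread between libraries than was estimated here. Its behaviour under pool differences like those seen here was therefore not tested. Ratios within a pool number have exact binomial intervals that cover counting error only, and shares were compared by exact permutation. TMM factors were 1.70 in WT1, 0.574 in WT2, 1.50 in KO1 and 0.684 in KO2. Genes come from GENCODE M21.

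Named miRNAs were the members, their opposite arms, cluster neighbours, other Hox miRNAs, seed relatives and the 3 nearest profiles per family. Members and lists were chosen with earlier results of these data known. Alternatives were other scalings and filters, limma-voom 3.58.1, DESeq2 1.42.0, read counts, other denominators, a looser threshold, the pool number as a block and each library left out. Blocked fits on total UMIs or with DESeq2 were added after seeing the data. Tables used Python 3.11.15, pandas 2.3.3 and SciPy 1.17.1.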

Additional observations from a re-analysis of the deposited data

How the results depend on the processing

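Of the 7 members, 0 passed in any fit, with a lowest adjusted p of 0.558 (edgeR, blocked, total UMIs). In that fit, added after seeing the data, 2 of 7 had an unadjusted edgeR p under 0.05, as had 74 of all 1797. They were miR-10b-5p (0.0102) and miR-99a-5p (0.0483). With blocked DESeq2, also added later, 1 of 7 did (miR-10b-5p, unadjusted DESeq2 p 0.0433), beside 19 of 1797. Over all miRNAs the count of calls was 0, and 0 to 3 with a library left out (2 without WT2, 3 without KO2). With the pool number as a replicate block it was 0, and 5 with the block and total UMIs, 0 of them members. Same-numbered libraries deviated together (correlation 0.686 over 352 miRNAs, 0.483 over 1809), but with 2 pairs and no stated shared handling the numbers are not taken as a pairing. The block moved the miRNAs at an unadjusted edgeR p under 0.05 from 32 to 78, and the estimate of miR-10b-5p was 0.88 (SE 0.44, edgeR adjusted p 0.898). No member estimate changed sign under another scaling, filter, tool or unit run here.

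Each library left out in turn gave log2 ranges of -0.25 to 0.90 for miR-10a-5p, -0.51 to 2.03 for miR-99a-5p, -0.82 to 0.68 for miR-99b-5p, -0.45 to 1.501 for miR-100-5p, -0.26 to 1.25 for miR-125b-5p, -0.14 to 0.99 for miR-10b-3p, -0.85 to 0.21 for miR-99a-3p, -0.56 to 0.072 for miR-99b-3p, -0.40 to 0.77 for let-7a-5p, -0.63 to 1.58 for let-7c-5p, -1.03 to 0.38 for let-7a-2-3p, -0.48 to 0.74 for let-7c-1-3p, -0.26 to 0.23 for let-7e-3p and -0.54 to 1.34 for miR-615-3p. In percentage points the KO minus WT share ranged from -0.0386 to 0.437 for miR-10, -0.129 to 1.40 for miR-125, -0.152 to 1.87 for all 7, -5.86 to 7.11 for miR-125a-5p in its family, -10.3 to 12.3 for miR-10b-3p of the miR-10 3p arms and -5.44 to 0.880 for miR-100-5p of miR-100-5p and miR-99a-5p.

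let-7e-3p, at -0.0017, was 0.0201 with DESeq2-type factors, 0.0202 with DESeq2, 0.0211 with the block and total UMIs, 0.0024 on reads and 0.0025 with the block and DESeq2. miR-615-3p was -0.14 on total UMIs and -0.10 with TMM on abundant miRNAs. The cause was not tested in these cases. Counts of 140 to 290 UMIs limit miR-100-5p in pool 1.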
